A study of Mus musculus with 2 samples.

Results

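The prostaglandin and leukotriene genes described here are 10 genes of 18786 in the deposited count table, chosen by name: the cyclooxygenase genes Ptgs2 and Ptgs1, the leukotriene genes Alox5, Alox5ap and Ltc4s, the prostaglandin D2 synthase gene Hpgds, and the receptor genes Ptger2, Ptger4, Ptgir and Ptgdr2. All 10 had a row in the table, and 9 had at least 1 UMI (unique molecular identifier, a tag that counts each captured RNA molecule once). They were followed in cells whose mitochondrial transcripts made up at most 10% of UMIs.

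The series holds 1 library from each of 2 ages, postnatal day 1 and postnatal day 14, prepared from C57/BL6 mouse skin. The sort kept innate lymphoid cells (ILCs), lymphocytes that lack the antigen receptors of T and B cells, as CD45-positive, lineage-negative and Thy1.2-positive cells from collagenase-digested tissue, and the libraries were made with a 10x Genomics kit that captures transcripts at their 5′ ends. The labels name no genotype other than the strain and no treatment, and do not say how many mice were pooled. The cells of both libraries stand in 1 table with a suffix of 1 or 2 on each cell name, and neither suffix matches a label, so the groups are called cell set 1 and cell set 2 and the days are not compared. With 1 library behind each set there is no test of any difference, and every interval below covers counting error only.

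Prostaglandins and leukotrienes are lipid mediators made from arachidonic acid, which phospholipases release from membranes. Cyclooxygenases turn it into prostaglandin H2, and terminal synthases turn that into prostaglandin E2, prostaglandin D2, prostacyclin or thromboxane. The 5-lipoxygenase Alox5, with its helper protein Alox5ap, opens the other branch, which leads to leukotriene B4 and, through Ltc4s, to the cysteinyl leukotrienes. Group 2 ILCs are known to respond to both branches: prostaglandin D2 and cysteinyl leukotrienes activate them, whereas prostaglandin E2 and prostacyclin restrain them.

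The 250 bases before the annotated start of 3 of these genes are shown first. Ptgs2 was the gene that separated the cell sets by at least 2-fold. The receptor genes Ptger4 and Ptgir were each read by more than 1000 UMIs. Like Ptgs2, both receptor genes were higher in cells of cell set 1 with an Il13 or Il5 UMI. For the other markers compared there, the intervals of their ratios held 1, unlike those of Ptgs2. The sequences are from RefSeq on GRCm38.p6, and each is given 5′ to 3′ on the strand of its gene. Capitals mark matches to the motifs described after them.
Ptgs2, chr1:150099781-150100030, plus strand: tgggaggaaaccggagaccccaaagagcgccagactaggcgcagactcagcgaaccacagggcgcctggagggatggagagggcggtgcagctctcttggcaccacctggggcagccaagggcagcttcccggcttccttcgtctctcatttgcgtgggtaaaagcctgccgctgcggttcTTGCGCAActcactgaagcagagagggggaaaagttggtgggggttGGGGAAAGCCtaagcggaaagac
Ptger4, chr15:5244188-5244437, minus strand: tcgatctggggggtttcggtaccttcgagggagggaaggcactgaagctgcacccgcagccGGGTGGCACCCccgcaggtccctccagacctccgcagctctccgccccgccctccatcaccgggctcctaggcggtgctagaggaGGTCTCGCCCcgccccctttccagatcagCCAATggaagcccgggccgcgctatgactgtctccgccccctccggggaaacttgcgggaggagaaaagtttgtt
Ptgir, chr7:16906240-16906489, plus strand: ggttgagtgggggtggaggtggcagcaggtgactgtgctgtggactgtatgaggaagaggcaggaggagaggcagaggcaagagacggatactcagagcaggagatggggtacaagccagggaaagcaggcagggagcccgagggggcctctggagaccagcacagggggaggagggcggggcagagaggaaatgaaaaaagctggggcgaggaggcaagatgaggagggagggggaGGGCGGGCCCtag

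Both strands were searched for a cyclic AMP response element core (TGACG), an E-box (CACGTG), an AP-1 site (TGANTCA), an NF-kB site (GGG and CC with any 5 bases between them), a TATA box (letters TATAAA), the CCAAT box, a GATA site (AGATAA) and a C/EBP palindrome (TTGCGCAA), the last chosen after the Ptgs2 sequence had been seen. The Ptgs2 window held the C/EBP palindrome from 69 bases before the start and an NF-kB match from 23 bases before it. The palindrome occurred in 0.164% and the NF-kB letters in 45.8% of 32851 RefSeq promoter windows of the same length, so the second match is common. As the palindrome was picked from the Ptgs2 window itself, its low share cannot measure how unusual that match is. The Ptger4 window held 3 NF-kB matches, of which 2 overlap each other, and a CCAAT box from 75 bases before the start, a box found in 33.8% of windows. The Ptgir window held 1 NF-kB match from 13 bases before the start. These matches describe the letters only. Among the other windows, that of Alox5 held 2 NF-kB matches, and those of Ptger2 and Ptgdr2 held a CCAAT box each.

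On the GRCm38 annotation (GENCODE vM21), Ptgs2 spans bases 150100031 to 150108227 of chromosome 1, Ptger4 spans bases 5206661 to 5244187 of chromosome 15, and Ptgir spans bases 16906490 to 16910905 of chromosome 7. Hpgds and Alox5 both lie on chromosome 6, and the remaining 5 genes lie on chromosomes 2, 5, 11, 14 and 19. All 10 are annotated as protein-coding genes. Counts were deposited per gene, so exons, introns and untranslated regions cannot be told apart in them.

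After filtering, cell set 1 held 1434 cells and cell set 2 held 3508 cells. The median depth was 10666.5 UMIs per cell in cell set 1 and 4849 UMIs per cell in cell set 2, and the summed depth was 16400074 UMIs in cell set 1 and 18026148 UMIs in cell set 2. Shares of cells with a UMI are therefore given after every cell had been thinned at random to 3000 UMIs, which left 1411 cells of cell set 1 and 3015 cells of cell set 2 and dropped 23 shallower cells of cell set 1 and 493 of cell set 2. Transcripts of other skin cells were more frequent in cell set 1: after thinning, Krt14 of keratinocytes had a UMI in 14.7% of its cells, against 0.564% in cell set 2, and Col1a1 of fibroblasts in 5.39%, against 0.597%. The sum of 8 keratinocyte markers was 208 UMIs per 1000000 UMIs (CPM) in cell set 1 and 28.0 CPM in cell set 2, and that of 8 fibroblast markers was 89.5 CPM in cell set 1 and 5.55 CPM in cell set 2. Of 10 mast cell and basophil markers, Fcer1a and Ms4a2 had no UMI, and Cma1 had 22.7 CPM in cell set 1 and no UMI in cell set 2. All 14 listed group 2 ILC markers were measured, with sums of 4939 CPM in cell set 1 and 5263 CPM in cell set 2. Of the sorted proteins' genes, Thy1 was 211 CPM in cell set 1 and 493 CPM in cell set 2, and Cd3e, a defining T cell gene, had a UMI in 26 thinned cells of cell set 1 and 31 of cell set 2. The sum of the 9 alpha-beta T cell markers in the table was 1266 CPM in cell set 1 and 1557 CPM in cell set 2, most of it from Cd3g, Trbc1 and Trbc2, and 4 of them were above 50 CPM in every cluster. Trac was 10.6 CPM in cell set 1 and 19.5 CPM in cell set 2. The sets shared 4 cell barcodes.

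Ptgs2 encodes COX-2, the inducible cyclooxygenase. It was read by 2583 UMIs in cell set 1 and 380 UMIs in cell set 2, which is 157 CPM (95% Poisson interval 151 to 164) against 21.1 CPM (19.0 to 23.3). The level in cell set 1 was 7.47-fold that in cell set 2, with a counting interval of 6.71 to 8.34. A UMI was found in 17.4% (15.5 to 19.5, exact Clopper-Pearson) of the thinned cells of cell set 1 and 3.32% (2.71 to 4.02) of those of cell set 2. Unthinned, the shares were 28.9% in cell set 1 and 4.87% in cell set 2.

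The Ptgs2 molecules were unevenly spread over cells. In cell set 1, 128 cells held 1 UMI, 59 held 2, 70 held 3 or 4, and 157 held 5 or more. The same counts were 90, 34, 30 and 17 cells in cell set 2. The 157 rich cells of cell set 1 carried 81.0% of its Ptgs2 UMIs, and the 17 of cell set 2 carried 32.6%. At least 10 UMIs were found in 77 cells of cell set 1 and 2 cells of cell set 2, with highest values of 77 UMIs in a cell of cell set 1 and 16 in a cell of cell set 2. Because molecules of 1 cell are not independent, the interval of the ratio is narrower than the spread between cells. Without the 1% of cells of each set richest in Ptgs2 the ratio was 11.4, as that step left 1981 of the 2583 UMIs of cell set 1 and 191 of the 380 UMIs of cell set 2.

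**Figure D1:**
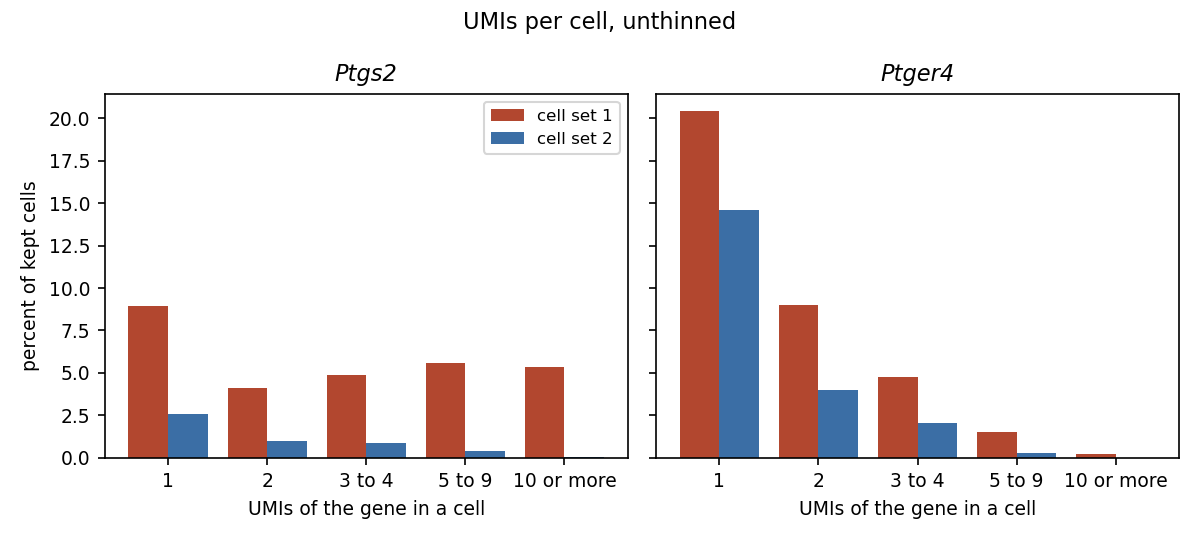
Percent of kept cells (y axis) by the number of Ptgs2 UMIs (left) or Ptger4 UMIs (right) they held (x axis, unthinned), with cell set 1 in red and cell set 2 in blue; cells with no UMI are not drawn. Ptgs2 cells of cell set 1 reach into the highest bin, with 77 cells at 10 or more UMIs, whereas Ptger4 falls off from 1 UMI upward in both sets.

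The ratio of Ptgs2 was 5.37 when cells with 2 or more UMIs of mast cell, macrophage, dendritic cell, neutrophil, fibroblast or keratinocyte markers were left out. That step kept 138 of the 1434 cells of cell set 1 and 2491 of the 3508 cells of cell set 2, since 90.4% of the cells of cell set 1 held such UMIs. The mast cell list includes Kit, which some ILCs also express. The part of other skin cells in the Ptgs2 level was not tested further. Cells with a Xist UMI and no Y-linked UMI gave 8.64, and cells with a Y-linked UMI and no Xist UMI gave 6.08. The direction was therefore the same in each of these subsets.

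Ptgs1 encodes COX-1, the constitutive cyclooxygenase. It had 12 UMIs in cell set 1 and 4 UMIs in cell set 2, each in a cell of its own, so the cyclooxygenase transcripts counted in both sets were almost all from Ptgs2. The counting interval of its ratio, 0.999 to 14.0, left its direction undetermined at this depth.

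The leukotriene branch was nearly empty. Alox5, the 5-lipoxygenase, had no UMI in either set, which allows at most 0.183 CPM in cell set 1 and 0.166 CPM in cell set 2 (3 UMIs each). Alox5ap, which presents arachidonic acid to that enzyme, had 6 UMIs in cell set 1 and 3 UMIs in cell set 2. Ltc4s, the leukotriene C4 synthase, had 1 UMI in cell set 1 and none in cell set 2. None of these molecules shared a cell with another of the same gene, and a difference between the sets was not detectable at these counts.

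Hpgds encodes the haematopoietic synthase that makes prostaglandin D2 from the cyclooxygenase product. It was read by 220 UMIs in cell set 1 and 285 UMIs in cell set 2, or 13.4 CPM (11.7 to 15.3) against 15.8 CPM (14.0 to 17.8). The ratio of 0.848 had an interval of 0.708 to 1.02, so the sets were not separated over all cells. The ratio was 0.706 (0.545 to 0.913) in cells with Y-linked UMIs alone and 0.993 (0.731 to 1.34) in cells with Xist UMIs alone, and 0.623 without the cells with outside markers, which left 9 UMIs in cell set 1 and 153 in cell set 2. A UMI was found in 3.05% of thinned cells of cell set 1 and 3.68% of those of cell set 2. Before thinning, 74.2% of the positive cells of cell set 1 and 78.9% of those of cell set 2 held exactly 1 UMI.

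Ptger4 encodes EP4, a prostaglandin E2 receptor that raises cyclic AMP. It had 956 UMIs in cell set 1 and 1080 UMIs in cell set 2, which is 58.3 CPM (54.7 to 62.1) against 59.9 CPM (56.4 to 63.6). The ratio was 0.973 (0.891 to 1.06). A UMI was found in 15.8% of thinned cells of cell set 1 and 12.9% of thinned cells of cell set 2. The levels overlapped, and the ratio was 1.17 in thinned cells and 0.874 with TMM scaling, so its side of 1 followed the processing.

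Ptger2 encodes EP2, the other prostaglandin E2 receptor among the 10 genes that is coupled to cyclic AMP. It had 57 UMIs in cell set 1 and 66 UMIs in cell set 2, or 3.48 CPM against 3.66 CPM, with a ratio of 0.949 (0.654 to 1.37). It was found in 0.780% of thinned cells of cell set 1 and 0.995% of those of cell set 2. The ratio was 1.67 in cells with Xist UMIs alone and 0.648 in cells with Y-linked UMIs alone, so no direction is given.

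Ptgir encodes the prostacyclin receptor. It had 476 UMIs in cell set 1 and 651 UMIs in cell set 2, which is 29.0 CPM (26.5 to 31.8) against 36.1 CPM (33.4 to 39.0). The ratio of 0.804 (0.713 to 0.906) was below 1 beyond counting error, by less than 2-fold. In cells with Y-linked UMIs alone the ratio was 1.00. The share of thinned cells with a UMI was 7.58% in cell set 1 and 9.02% in cell set 2.

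Ptgdr2 encodes CRTH2, the prostaglandin D2 receptor used to recognise group 2 ILCs in human blood. It had 88 UMIs in cell set 1 and 54 UMIs in cell set 2, or 5.37 CPM (4.30 to 6.61) against 2.996 CPM (2.25 to 3.91). The ratio was 1.79 (1.26 to 2.56), and 2.13% of thinned cells of cell set 1 had a UMI, against 0.763% in cell set 2. With so few positive cells the value moved with the cells used. It was 2.76 after thinning and 4.56 without the richest 1% of cells, which left 58 UMIs in cell set 1 and 14 in cell set 2. With a pseudocount of 10 it was 1.18. In cells with Y-linked UMIs alone it was 2.25 (1.27 to 4.18). In cells with Xist UMIs alone it was 1.28 (0.724 to 2.25), an interval that held 1.

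Of the 6 genes with at least 20 UMIs over both sets, 1 (Ptgs2) was at least 2-fold higher in cell set 1, none was at least 2-fold lower, and 5 lay within 2-fold on the scale of CPM + 1. Over all 12020 genes with that many UMIs, 7.90% were at least 2-fold higher in cell set 1 and 5.57% at least 2-fold lower. The median log2 ratio of the 6 genes was -0.05, against 0.13 over all genes. The other 4 genes had too few UMIs to enter the count.

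**Figure D2:**
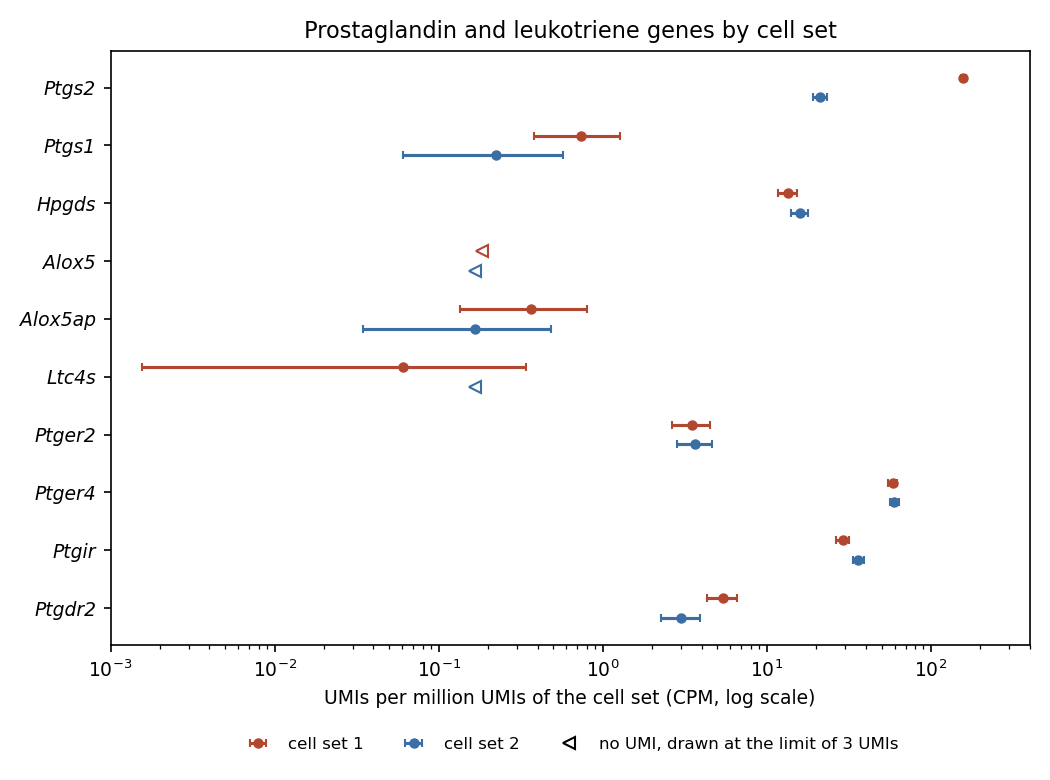
Level of each gene (y axis) in CPM of the cell set (x axis, log scale), with cell set 1 in red above cell set 2 in blue. Points are sums over all kept cells and bars are 95% Poisson intervals. Open triangles mark genes with no UMI, drawn at the level of 3 UMIs. Ptgs2 stands at 157 and 21.1 CPM, while the intervals of Ptger4, Ptger2 and Hpgds overlap between the sets.

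Clusters were built without these genes and without the other eicosanoid genes, and are called by number and leading genes. Cluster 0, led by Slc38a4, Igsf5 and Calca, held 677 cells of cell set 1 and 8 of cell set 2. Cluster 1, led by histone and division genes, held 335 cells of cell set 1 and 119 of cell set 2. Cluster 2, led by Hopx, Ccr7 and Cd70, held 3 cells of cell set 1 and 1830 of cell set 2, and cluster 3, led by Il2, Id3 and Fosb, held 8 of cell set 1 and 1233 of cell set 2. Cluster 4, led by Tspan32 and Akr1c13, held 217 cells of cell set 1 and 219 of cell set 2. Cluster 5, led by Tyrobp, Il22 and Fcer1g, held 194 cells of cell set 1 and 39 of cell set 2 and had 8 of 12 group 3 ILC markers raised. It also had raised markers of other cells, namely 3 of 10 of natural killer cells and group 1 ILCs (Klrk1, Xcl1, Klrd1), 2 of 8 of gamma-delta T cells, 3 of 8 of fibroblasts (Col1a1, Col1a2, Col3a1), 3 of 8 of keratinocytes (Krt14, Krt5, Lgals7), 2 of 6 of endothelial cells (Pecam1, Cldn5), and Cma1, Batf3, Ighm and Hbb-bs. In cluster 0, Krt14, Krt5, Lgals7, Col3a1 and Cma1 were raised too. Cluster 6, led by hair keratin-associated genes, held 60 cells of cell set 2 with a median of 778.5 UMIs and is not named. Values are given where a cluster held at least 50 cells of a set. As clusters 0, 2 and 3 were each nearly of 1 cell set, only clusters 1 and 4 allow the sets to be set side by side within a cluster.

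Ptgs2 in cell set 1 was 209 CPM (199 to 220) in cluster 0 and 270 CPM (245 to 296) in cluster 5. It was 87.7 CPM (80.1 to 95.9) in the dividing cluster 1 and 46.1 CPM (36.4 to 57.6) in cluster 4. By the share of thinned cells with a Ptgs2 UMI the order of these clusters was another one: 23.0% (19.8 to 26.4) in cluster 0, 18.2% (13.04 to 24.4) in cluster 5, 12.3% in cluster 1 and 6.31% in cluster 4. A single cell with 77 UMIs held part of the 436 Ptgs2 UMIs of cluster 5, and without it, a step chosen after seeing the data, the level there was 224 CPM (201 to 248), which overlaps that of cluster 0. Cluster 0 held 50 and cluster 5 held 13 of the 77 cells with at least 10 Ptgs2 UMIs. Ptgs2 itself was among the 10 leading genes of cluster 0, although it was not used to build it. Leading genes were ranked against all other cells, most of them of cell set 2, so this repeats in part the difference between the sets. The levels of cell set 2 were 37.3 CPM in cluster 1, 18.1 CPM in cluster 2, 23.9 CPM in cluster 3 and 14.7 CPM in cluster 4, with 1 UMI in cluster 6. In 3 other clusterings, at a coarser resolution, at a finer one and with these genes left in, the lowest cluster level in cell set 1 was 95.3, 87.9 and 22.6 CPM, and the highest in cell set 2 was 75.5, 58.3 and 75.8 CPM.

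Within cluster 1 the Ptgs2 ratio of cell set 1 to cell set 2 was 2.35 (1.73 to 3.26), and within cluster 4 it was 3.13 (1.61 to 6.79). Both were above 1 and smaller than the ratio over all cells. The Hpgds ratio was 0.629 (0.378 to 1.09) within cluster 1 and 0.294 (0.132 to 0.634) within cluster 4, where it rested on 13 UMIs in cell set 1 and 18 in cell set 2. That of Ptger4 was 0.726 (0.563 to 0.944) within cluster 1 and 0.813 (0.608 to 1.10) within cluster 4, and that of Ptgir was 1.22 (0.817 to 1.88) within cluster 1 and 0.610 (0.388 to 0.971) within cluster 4. Hpgds was thus lower in cell set 1 within cluster 4, beyond counting error. In cell set 1, Krt14 was 54.8, 40.8, 58.0 and 64.3 CPM in clusters 0, 1, 4 and 5, and Col1a1 was 18.6, 15.3, 22.7 and 41.4 CPM. Both were highest in cluster 5, which also had the highest Ptgs2 level, and second in cluster 4, which had the lowest Ptgs2 level of these clusters. Their part in the Ptgs2 levels was not tested.

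Ptger4 and Ptgir were low in the Il22-led cluster 5 of cell set 1. Ptger4 was 22.3 CPM (15.6 to 30.8) there, against 67.9 CPM in cluster 0, 48.2 CPM in cluster 1 and 85.0 CPM in cluster 4. Ptgir was 1.24 CPM (0.150 to 4.47, 2 UMIs), against 34.4, 29.3 and 30.5 CPM in clusters 0, 1 and 4. Hpgds followed with 1.85 CPM (3 UMIs) in cluster 5 and 19.1 CPM in cluster 0. After thinning, 1 of 192 cells of cluster 5 had a Ptgir UMI, or 0.521%, against 9.55% of cluster 0. Cluster 5 thus held the lowest levels of Ptger4, Ptgir and Hpgds among the 4 clusters of cell set 1. The cluster richest in Il22 in the 3 other clusterings had 21.8 to 22.4 CPM of Ptger4, 1.24 to 1.81 CPM of Ptgir and 266 to 271 CPM of Ptgs2.

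Among the clusters of cell set 2, Ptger4 was 86.0 CPM (78.5 to 93.96) in cluster 3 and 42.3 CPM (38.4 to 46.5) in cluster 2. Ptgir was 53.7 CPM (47.8 to 60.1) in cluster 3 and 27.9 CPM (24.7 to 31.3) in cluster 2. Hpgds went the other way, with 9.04 CPM (6.73 to 11.9) in cluster 3 and 18.8 CPM (16.2 to 21.7) in cluster 2. Cluster 4 of cell set 2 had more of both Ptger4, at 104 CPM (81.6 to 132), and Hpgds, at 26.5 CPM (15.7 to 41.9), with Ptgir at 50.03 CPM (34.6 to 69.9). Cluster 1 had 66.4 CPM of Ptger4, 24.1 CPM of Ptgir and 17.4 CPM of Hpgds. Between clusters 3 and 2 the receptors and the synthase thus differed in opposite directions, but by level cluster 4 did not follow that order. In the other clusterings the highest cluster level in cell set 2 was 150 to 152 CPM of Ptger4 and 58.3 to 66.4 CPM of Hpgds.

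In this clustering Ptgdr2 was highest in cluster 4 in both sets. It was 24.5 CPM (17.6 to 33.3) there in cell set 1 and 20.6 CPM (11.3 to 34.6) in cell set 2, whereas clusters 0 to 3 lay between 1.18 and 4.08 CPM, cluster 5 of cell set 1 had 1.24 CPM and cluster 6 had 2 UMIs. Cluster 4 made up 15.1% of cell set 1 and held 46.6% of its Ptgdr2 UMIs. It made up 6.24% of cell set 2 and held 25.9% of its Ptgdr2 UMIs. The ratio of cell set 1 to cell set 2 within cluster 4 was 1.19 (0.636 to 2.37). The highest cluster level in cell set 1 was 7.14 CPM at the coarser resolution, 19.5 CPM at the finer one and 24.0 CPM with these genes left in, and in cell set 2 it lay between 17.2 and 20.6 CPM, so the concentration in cell set 1 depended on the clustering.

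**Figure D3:**
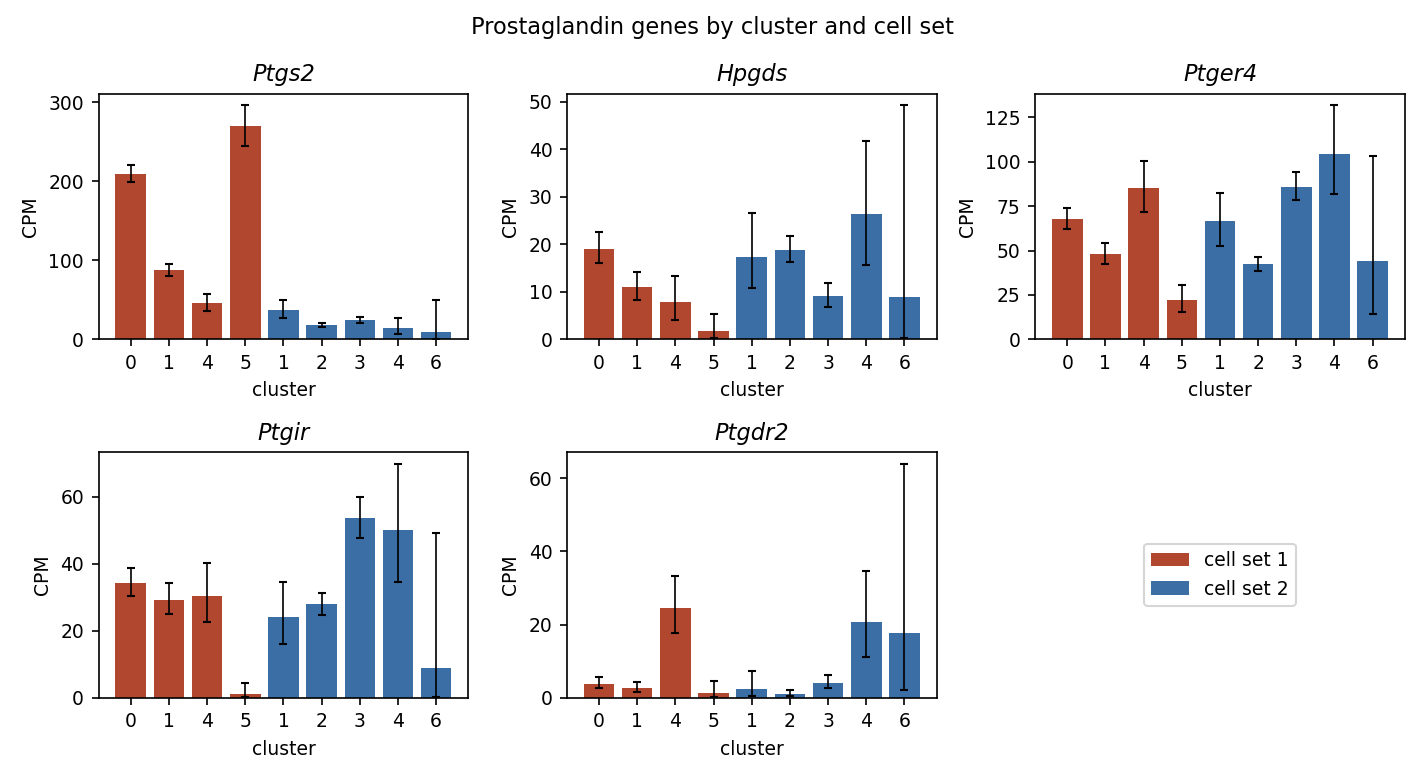
Level of Ptgs2, Hpgds, Ptger4, Ptgir and Ptgdr2 in CPM (y axes, each from 0) by cluster (x axis), with the clusters of cell set 1 in red left of those of cell set 2 in blue; bars are sums over the cells of a cluster and whiskers are 95% Poisson intervals. Cluster 5 of cell set 1 has 270 CPM of Ptgs2 and 1.24 CPM of Ptgir, and cluster 4 stands out for Ptgdr2 in both sets.

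The genes were next compared between thinned cells with and without a UMI of marker genes, which were not used to choose them. Il13 and Il5 encode the signature cytokines of group 2 ILCs. In cell set 1, 509 cells had a UMI of either and 902 had none. Ptgir was found in 13.2% of the cells with such a UMI and 4.43% of those without, and its level was 3.54-fold higher (2.40 to 5.32). Ptgs2 was found in 23.0% of the cells with and 14.3% of those without, at 2.31-fold the level (1.97 to 2.70). Ptger4 was found in 21.4% with and 12.6% without, at 1.81-fold the level (1.42 to 2.30). Of all 6428 genes with at least 50 thinned UMIs in cell set 1, 0.529% were at least 2-fold higher in the cells with an Il13 or Il5 UMI. The Il22-led cluster, where Ptgir and Ptger4 were low, had 29.1 CPM of Il13, against 250.8 CPM in cluster 0.

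The same contrast in cell set 2 rested on 1457 cells with an Il13 or Il5 UMI and 1558 cells without. Ptgir was found in 9.95% of the cells with and 8.15% of those without, at a ratio of 1.30 (1.04 to 1.63). Ptgs2 had a ratio of 1.22 (0.890 to 1.68) and Ptger4 a ratio of 0.849 (0.710 to 1.01), so neither was separated from 1 by counting error. Of 8019 genes measured there, 0.711% were at least 2-fold higher in the cells with such a UMI. The difference between the sets in these ratios was not tested.

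Hpgds followed another pair of markers. Il1rl1, the interleukin 33 receptor, and Klrg1, a receptor of mature group 2 ILCs, had a UMI in 63 cells of cell set 1 and 92 cells of cell set 2. Hpgds was found in 9.52% of these cells in cell set 1 and 2.74% of the cells without, a ratio of 3.38 (1.17 to 8.06) that rests on 6 UMIs against 38. The shares in cell set 2 were 9.78% with and 3.49% without, a ratio of 3.29 (1.65 to 5.96) that rests on 12 UMIs against 116. Of all genes, 3.33% in cell set 1 and 5.74% in cell set 2 were at least 2-fold higher in these cells. Hpgds was therefore higher in the marked cells of both sets, on small counts.

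Ptgs2 in those Il1rl1 or Klrg1 cells was found in 34.9%, against 16.6% of the cells without, in cell set 1 (ratio 2.21, 1.68 to 2.88). The shares in cell set 2 were 4.35% with and 3.28% without (ratio 0.789, 0.212 to 2.06), on 4 UMIs in the marked cells. Ptgir was found in 15.2% of the marked cells and 8.83% of the others in cell set 2 (ratio 1.87, 1.09 to 3.004). It had 2 UMIs in the marked cells of cell set 1.

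Cells with a UMI of Il22, Il17a or Il17f numbered 92 in cell set 1. Ptgs2 was found in 23.9% of them and 16.98% of the others, a ratio of 1.48 (1.12 to 1.93). Ptger4 had a ratio of 0.584 (0.288 to 1.06) and Ptgir a ratio of 0.888 (0.349 to 1.89). The 79 such cells of cell set 2 gave ratios of 1.16, 1.04 and 0.941 for Ptgs2, Ptger4 and Ptgir, each with an interval that held 1.

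**Figure D4:**
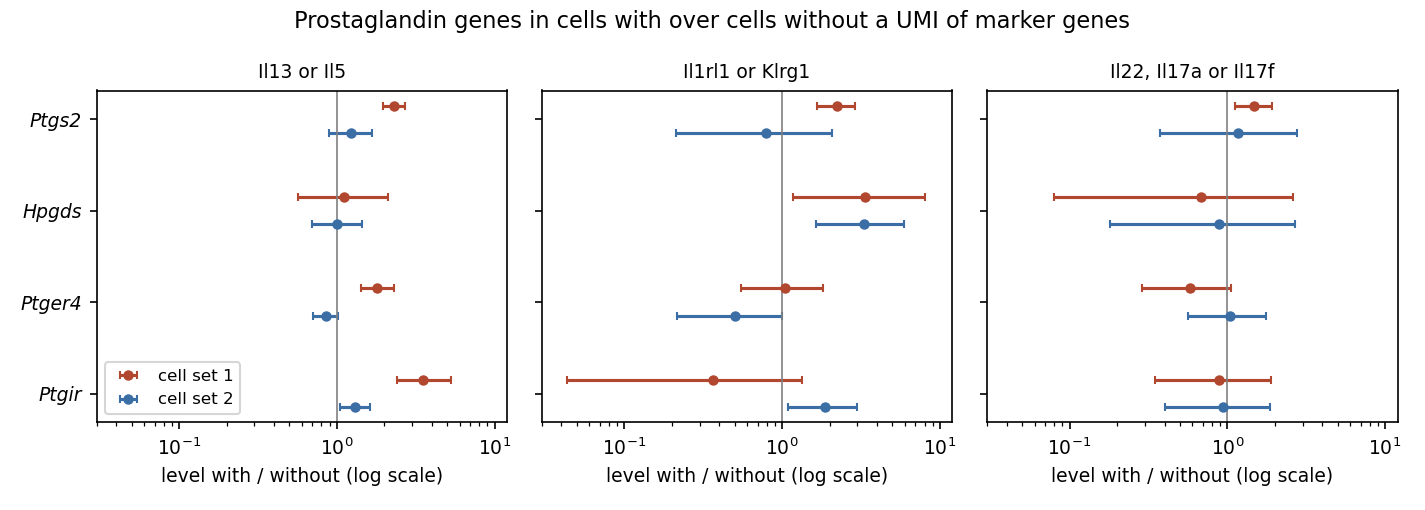
Level of Ptgs2, Hpgds, Ptger4 and Ptgir (y axis) in thinned cells with a UMI of the marker genes named above each panel, divided by the level in cells without one (x axis, log scale, grey line at 1), with cell set 1 in red above cell set 2 in blue; bars are exact 95% counting intervals. Ptgir stands at 3.54 for Il13 or Il5 in cell set 1, and Hpgds at 3.38 and 3.29 for Il1rl1 or Klrg1.

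Between the genes themselves, pairs in the same cell were few. Ptgir was found in 10.8% of the cells with a Ptger4 UMI and 6.99% of those without in cell set 1 (ratio 1.62, 1.02 to 2.50). In cell set 2 it was found in 10.8% with and 8.76% without (ratio 1.47, 1.09 to 1.96). The level of Ptgir was thus higher in cells with a Ptger4 UMI in both sets, by less than 2-fold, while the intervals of its shares overlapped. The reverse contrast, Ptger4 in cells with a Ptgir UMI, had a ratio of 1.35 (0.879 to 1.997) in cell set 1. In cell set 2 the reverse ratio was 1.19 (0.878 to 1.58), so both intervals held 1. Ptgs2 in cells with a Ptger4 UMI had a ratio of 1.28 (1.05 to 1.55) in cell set 1 and 0.982 (0.590 to 1.56) in cell set 2. Hpgds had 7 UMIs in the 246 thinned cells of cell set 1 with a Ptgs2 UMI and 37 in the 1165 without, a ratio of 0.896 (0.337 to 2.04), so the level of the synthase was not separated between cells with and without the cyclooxygenase.

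Ptgdr2 had 1 UMI in the 246 cells of cell set 1 with a Ptgs2 UMI and 30 in the 1165 without. That is a ratio of 0.158 (0.00387 to 0.950). In cell set 2 it had 2 UMIs in the 100 cells with and 22 in the 2915 without. The ratio there was 2.65 (0.302 to 10.8), so the lower level in cell set 1 was not repeated. In the other direction, 1 of the 30 cells of cell set 1 with a Ptgdr2 UMI held Ptgs2. Ptger2 was higher in the Ptgs2 cells of cell set 2, on 5 UMIs with and 28 without (ratio 5.21, 1.57 to 13.7). Its ratio in cell set 1 was 2.37 (0.522 to 8.84).

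The cells of cell set 1 with a Ptgs2 UMI also differed in other transcripts. Areg, the growth factor amphiregulin, was 1156 CPM in cells with a Ptgs2 UMI and 518 CPM in cells without (ratio 2.23, 2.06 to 2.42). Il5 was 291 CPM with and 101 CPM without (ratio 2.89, 2.43 to 3.44), and Il13 was 348 CPM with and 209 CPM without (ratio 1.66, 1.44 to 1.92). The transcription factor gene Hes1 was 404 CPM with and 198 CPM without (ratio 2.04, 1.77 to 2.34). Ltb4r1, the leukotriene B4 receptor, was 39.3 CPM with and 16.9 CPM without (ratio 2.33, 1.44 to 3.69). Gata3 had a ratio of 1.23 (1.11 to 1.36). Calca had a ratio of 1.13 (1.02 to 1.25). The remaining genes compared here had intervals that held 1. Their ratios were 1.11 for Csf2, 0.862 for Cysltr1, 0.812 for Cysltr2, 0.936 for Ptges3, 2.84 for Ptges, 0.677 for Ptges2 and 0.592 for Pla2g4a. Of 6429 genes with at least 50 thinned UMIs, 1.31% were at least 2-fold higher and 3.39% at least 2-fold lower in the cells with a Ptgs2 UMI.

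In cell set 2, Areg was 1287 CPM in cells with and 940 CPM in cells without a Ptgs2 UMI (ratio 1.37, 1.23 to 1.52), and Il13 was 553 CPM with and 349 CPM without (ratio 1.59, 1.35 to 1.85). Il5 had a ratio of 1.12 (0.874 to 1.41) and Ltb4r1 a ratio of 1.37 (0.541 to 2.89). Hes1 had 4 UMIs in the 100 cells with Ptgs2. Areg and Il13 were thus higher in the Ptgs2 cells of both sets. Among 8020 genes, 3.14% were at least 2-fold higher there and 11.4% at least 2-fold lower.

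Likeness across cells was measured as Pearson's r of log counts over the 1411 thinned cells of cell set 1, which share a library and a depth. The genes most like Ptgs2 were Nfkbia (r = 0.306), an inhibitor of NF-kB, Gadd45b (0.302), a stress-response gene, the chemokine gene Cxcl2 (0.295), Ifrd1 (0.284) and the kinase gene Pim1 (0.280). Of 5295 genes compared, 20 reached 0.2, and the values are weak. No gene reached 0.2 with Ptger4, with highest values of 0.191 in cell set 1 and 0.147 in cell set 2, nor with Ptgir, with 0.164 in cell set 1 and 0.129 in cell set 2. Ptgs2 was in too few thinned cells of cell set 2 (under 5%) to be compared there.

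Early-response genes, which are switched on within minutes of a stimulus, were read beside Ptgs2 because it belongs to that kind of gene. In cell set 1 the sum of 17 such genes was 11362 CPM in cells with a Ptgs2 UMI and 7632 CPM in cells without, and 13 of 15 measured genes were higher, 2 of them at least 2-fold, against 1.31% of 6429 genes. The median log2 ratio of the 15 genes was 0.45, against -0.06 over all genes. The sums in cell set 2 were 9340 CPM with and 9325 CPM without. There 8 of 17 genes were higher, none of them at least 2-fold, against 3.14% of 8020 genes. Only Egr1 was at least 2-fold lower (ratio 0.420, 0.136 to 0.990, on 5 UMIs in cells with Ptgs2), against 11.4% of all genes. The median log2 ratio in cell set 2 was -0.002, against -0.04 over all genes. Over all cells the sum was 7748 CPM in cell set 1 and 9036 CPM in cell set 2, which is the opposite order to that of Ptgs2. Of the 17 genes, 4 were at least 2-fold higher in cell set 1 and 5 at least 2-fold lower, against 7.90% and 5.57% of all 12020 genes.

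The early-response genes that differed most were mixed in direction. The levels of Nr4a3, Fosb, Egr3 and Jund in cell set 1 were 0.316, 0.337, 0.320 and 0.419 times those in cell set 2. Those of Nr4a2 and Atf3 were 2.57 and 2.38 times as high. The group thus had no single direction between the sets.

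The genes around these 10 in the pathway were read next. Of 61 other eicosanoid genes listed, 55 were in the table, 48 had a UMI and 29 had at least 20 UMIs. Of those 29, 6 were at least 2-fold higher in cell set 1, 2 at least 2-fold lower and 21 within 2-fold, with a median log2 ratio of 0.19. Over all 12020 genes, 7.90% were at least 2-fold higher and 5.57% at least 2-fold lower, with a median of 0.13. The 6 were Ptgr1, Alox8, Cysltr1, Hpgd, Akr1c18 and Pla2g4a, and the 2 were Mgll and Ggt5. Transcripts of other skin cells were more frequent in cell set 1. None of the other eicosanoid genes was recomputed without the cells with outside markers. The part of other skin cells in their levels was not tested. Akr1c18, a steroid and prostaglandin reductase, had 20 UMIs in cell set 1 and none in cell set 2, and lies in a family of similar genes among which reads can be split.

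Upstream of the cyclooxygenases, Pla2g4a, the cytosolic phospholipase that frees arachidonic acid, had 24 UMIs in cell set 1 and 2 in cell set 2 (ratio 13.2, 3.27 to 115). Pla2g6, another phospholipase, was 1.46 CPM in cell set 1 and 3.16 CPM in cell set 2. Faah and Mgll, hydrolases of endocannabinoids, were 61.3 and 1.59 CPM in cell set 1, against 89.6 and 5.27 CPM in cell set 2. Transcripts that supply the substrate were thus sparse for Pla2g4a and did not share 1 direction.

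Downstream, the prostaglandin E synthase genes Ptges and Ptges2 were 2.50 and 7.20 CPM in cell set 1, against 1.997 and 5.38 CPM in cell set 2. Ptges3, which is also the HSP90 co-chaperone p23, was 184 CPM in cell set 1 and 139 CPM in cell set 2 (ratio 1.32, 1.25 to 1.39). The lipocalin-type prostaglandin D synthase gene Ptgds had 12 UMIs in cell set 1 and 2 in cell set 2. The prostacyclin synthase gene Ptgis had 1 UMI in cell set 1 and none in cell set 2, and the thromboxane synthase gene Tbxas1 had none in either. The prostaglandin E synthase genes were thus within 2-fold between the sets, and the prostacyclin and thromboxane synthase genes were at or near the limit of detection.

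Genes for the export and breakdown of these mediators differed in how often they were read. Hpgd, which inactivates prostaglandins, had 24 UMIs in cell set 1 and 1 in cell set 2. The transporter genes Slco2a1 and Abcc4 had 11 and 17 UMIs in cell set 1, against 12 and 14 in cell set 2. Ptgr1, a reductase of leukotriene B4 and prostaglandin metabolites, was 8.41 CPM in cell set 1 and 1.61 CPM in cell set 2 (ratio 5.23, 3.48 to 8.10). Ptgr2, another prostaglandin reductase, was 7.99 CPM in cell set 1 and 8.04 CPM in cell set 2, and Cbr1, a carbonyl reductase that also acts on prostaglandins, was 13.9 CPM in cell set 1 and 14.9 CPM in cell set 2. Abcc1, which exports leukotriene C4, was 12.3 CPM in cell set 1 and 21.0 CPM in cell set 2 (ratio 0.583, 0.489 to 0.693).

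Leukotriene receptors were read in both sets, although Alox5 had no UMI. Cysltr1, the first receptor for cysteinyl leukotrienes, was 136 CPM in cell set 1 and 53.3 CPM in cell set 2 (ratio 2.56, 2.37 to 2.76). Cysltr2, the other such receptor, was 8.54 CPM in cell set 1 and 17.2 CPM in cell set 2 (ratio 0.496, 0.404 to 0.608). The cysteinyl leukotriene receptors thus went in opposite directions between the sets. Cysltr1 was 18.5 CPM in cluster 5 of cell set 1, against 135 CPM in cluster 0, an order like that of Ptger4 and Ptgir.

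Lta4h, the leukotriene A4 hydrolase, was 28.7 CPM in cell set 1 and 27.9 CPM in cell set 2 (ratio 1.03, 0.904 to 1.17). Alox8, a lipoxygenase of skin, was 4.45 CPM in cell set 1 and 0.999 CPM in cell set 2. Ggt5, which trims leukotriene C4, was 1.34 CPM in cell set 1 and 4.60 CPM in cell set 2. Mgst3, a microsomal glutathione transferase, was 18.0 CPM in cell set 1 and 8.54 CPM in cell set 2. Alox12, Alox15 and Alox12b had no UMI, and neither had Ptgdr, the other prostaglandin D2 receptor.

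All 24 listed genes of cyclic AMP signalling, the pathway that Ptger2, Ptger4 and Ptgir act on, were measured. Of these, 4 were at least 2-fold higher in cell set 1 and 4 at least 2-fold lower, against 7.90% and 5.57% of all 12020 genes. Their median log2 ratio was -0.12, against 0.13 over all genes. Several that differed most were phosphodiesterases, which break cyclic AMP down. Pde4a was 6.65 CPM in cell set 1 and 69.8 CPM in cell set 2 (ratio 0.0952, 0.0775 to 0.116), and Pde7a was 44.6 CPM in cell set 1 and 137 CPM in cell set 2. Pde8a, Pde4d and Pde3b were above 1 in their ratios, at 3.72, 2.61 and 2.43. Rgs16, a brake on G protein signalling, was 16.1 CPM in cell set 1 and 55.5 CPM in cell set 2. The sets therefore differed in phosphodiesterase transcripts in both directions, while the receptor transcripts Ptger4 and Ptger2 were within 2-fold. In cell set 1, 15 of 21 genes of the list with at least 50 thinned UMIs were higher in cells with a Ptgs2 UMI. In cell set 2, 12 of 23 were. The median log2 ratios were 0.12 and 0.02, against -0.06 and -0.04 over all genes. None was at least 2-fold higher (1.31% and 3.14% of all genes), and 2 in each set were at least 2-fold lower (3.39% and 11.4%).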

How the data were processed

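The deposited table holds whole-number UMI counts per gene and cell for both libraries together; per the submitters' processing notes, the authors used Cell Ranger 3.1.0, Seurat 4.1.0 and mm10. Cells with over 10% mitochondrial UMIs (30 of cell set 1 and 267 of cell set 2) were left out, and so were 7 cells that scrublet, run in scanpy 1.11.5, called doublets; it marked 0.141% of cells, so it did not work here and doublets remain. UMIs were summed per cell set and divided by the set's total (CPM). Ratios carry exact binomial intervals, folds of at least 2 were counted on CPM + 1, and no gene was tested, since each set is 1 library. Cells were thinned to 3000 UMIs for shares, and clustered with Leiden (resolution 0.5, 2000 variable genes, 30 components). The scripts were tested on simulated data. The genes and lists were chosen with earlier results of these data known. From the lists, the text names the genes with the greatest log2 ratios among those with 50 UMIs or more (up to 10 eicosanoid genes and 6 of each other list), plus genes that make or move a substrate or ligand. The motifs were chosen likewise. TMM factors came from edgeR 4.0.16.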

Additional observations from a re-analysis of the deposited data

Results flagged for a closer look

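Cells over the mitochondrial limit, 30 in cell set 1 and 267 in cell set 2, entered no main comparison. Some of these genes had more than 3 UMIs in them. In the 30 cells of cell set 1, Ptgs2 was 98.4 CPM (9 UMIs), Ptger4 was 87.5 CPM (8 UMIs) and Ptgir was 54.7 CPM (5 UMIs). In the 267 cells of cell set 2, Ptgs2 was 37.7 CPM (11 UMIs), Hpgds was 24.0 CPM (7 UMIs), Ptger4 was 113 CPM (33 UMIs) and Ptgir was 68.5 CPM (20 UMIs). Ptgs2 thus had the same order between the sets in the cells left out.

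Calca, which encodes the neuropeptide CGRP, had level ratios with Ptgs2 on opposite sides of 1. Its level in cells with a Ptgs2 UMI was 1.13-fold that in cells without (1.02 to 1.25) in cell set 1 and 0.620-fold (0.410 to 0.900) in cell set 2. The lower level in cell set 2 rested on 28 UMIs in 12 cells. The share of cells with a Calca UMI there was 12% with and 14.3% without a Ptgs2 UMI, with overlapping intervals. Ptgs2 in cells with a Calca UMI had a ratio of 1.52 (1.298 to 1.77) in cell set 1. In cell set 2 that ratio was 0.603 (0.329 to 1.03), so its interval held 1. The difference between the sets was not tested.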

How the results depend on the processing

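Ratios were recomputed for the 6 genes with at least 20 UMIs, and that of Ptgs2 stayed above 1 in all 14 settings; no single gene outside the 10 was recomputed. The Ptgs2 ratio of 7.47 was 8.56 after thinning, 5.39 with a pseudocount of 10, 9.71 without the cycling cluster, 8.64 in cells with Xist UMIs alone, 6.08 in cells with Y-linked UMIs alone, 5.37 without cells with outside markers and 11.4 without the richest 1% of cells; 7 other settings moved it by less than its interval. Genes at least 2-fold higher in cell set 1 numbered 2 after thinning and with a 1.5-fold limit, as Ptgdr2 joined Ptgs2, and 1 gene (Ptger2, with 1 UMI left in cell set 1) was 2-fold lower without cells with outside markers. Of the other eicosanoid genes, 2 were higher at 100 UMIs or more, and with a pseudocount of 10 there was 1 higher and there were 0 lower. TMM scaling shifted the median log2 ratio of all genes by -0.14, so ratios close to 1 follow the scaling. Leaving out the hair-gene cluster and repeating the likeness to Ptgs2 with another seed were chosen after seeing the data; the first gave 7.44, and the second gave 21 genes, of which 18 were shared. Of 72 cluster levels recomputed in 3 other clusterings, 25 moved beyond their interval. Unthinned, 60 genes reached r = 0.2. No paired analysis was possible because each set is 1 library and carries no replicate number. Depth limits Ptgs1, Alox5, Alox5ap and Ltc4s most.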
